A study of Mus musculus with 6 samples.

Results

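The cell cycle and mitosis genes are 48 named genes of the machinery that copies and divides the genome, matched by symbol in a mouse RNA-seq table, with no threshold on a measured value. Of the 48, 45 had a locus of their own in the table, and all 45 passed the filter on low counts, among 17396 loci tested. The other 3 lay in loci that the assembly had joined with neighbouring genes, namely *Top2a*, *Mcm7* and *Foxm1*, and are described apart from the counts of members. Endothelial cells (ECs) were labelled as coming from 2-month-old C57BL/6 mice of both groups. The Stk11-KO group came from Stk11ec-/- mice (Stk11 fl/fl Cdh5Cre), in which a Cre recombinase driven by the *Cdh5* promoter removes *Stk11*, the gene of the kinase Lkb1, from cells that express or have expressed *Cdh5*, and the WT group was labelled wild type. Each group had 3 libraries. The sources used here do not state the tissue of the sequenced ECs or whether each library was from a separate mouse, so every p-value rests on the spread among libraries, and part of that spread may be technical.

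A dividing cell passes from G1, in which D-type cyclins with Cdk4 and Cdk6 release the E2F factors from the pocket proteins, into S phase, in which licensed origins fire and deoxynucleotides are made, and then through G2 into mitosis, driven by cyclins A and B with Cdk1. Most vessel-lining cells of adult tissues rest outside the cycle. The D-type cyclins respond to growth signals and can be abundant in cells that do not divide, whereas the transcripts of the mitotic genes build up mainly in cells in late S phase, G2 and mitosis, and are commonly read as a mark of dividing cells. A repressor complex of pocket proteins and MuvB proteins is known to bind the cell cycle genes homology region (CHR) in the promoters of mitotic genes, and E2F factors bind promoters of replication genes.

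The promoters of a few members are shown because motifs in them are a known mark of mitotic and of replication genes. RefSeq promoter windows of 300 bases (GRCm38.p6, 250 before to 50 after the start) matched 37 of the 48 members. Windows were searched on both strands for the CHR (TTTGAA or TTTAAA), for the CCAAT box (CCAAT) and for an E2F site (TTTCCCGC, TTTGGCGC, TTTCGCGC or TTTGCCGC). The stretches below are the 150 bases before the start, 5′ to 3′ on the strand of the gene, with matches to any of these motifs, or to their reverse complements, in capitals. *Cdk1*, *Ccnb1*, *Cdc20* and *Ube2c* stand for mitotic members, *Mcm6* for replication members and *Cdk4* for G1 members.
Cdk1 (chr10:69352913-69353062, minus strand): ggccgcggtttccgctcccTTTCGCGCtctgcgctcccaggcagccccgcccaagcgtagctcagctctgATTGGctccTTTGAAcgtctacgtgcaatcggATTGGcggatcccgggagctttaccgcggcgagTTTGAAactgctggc
Ccnb1 (chr13:100786487-100786636, minus strand): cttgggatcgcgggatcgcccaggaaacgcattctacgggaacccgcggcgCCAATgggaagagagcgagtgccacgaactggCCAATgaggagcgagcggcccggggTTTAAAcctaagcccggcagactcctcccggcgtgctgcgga
Cdc20 (chr4:118437344-118437493, minus strand): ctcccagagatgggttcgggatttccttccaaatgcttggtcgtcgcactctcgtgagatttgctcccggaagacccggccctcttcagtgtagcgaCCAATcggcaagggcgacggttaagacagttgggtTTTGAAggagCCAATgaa
Ube2c (chr2:164769779-164769928, plus strand): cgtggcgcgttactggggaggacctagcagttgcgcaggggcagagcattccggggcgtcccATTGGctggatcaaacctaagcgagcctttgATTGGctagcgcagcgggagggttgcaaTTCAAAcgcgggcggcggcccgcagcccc
Mcm6 (chr1:128359706-128359855, minus strand): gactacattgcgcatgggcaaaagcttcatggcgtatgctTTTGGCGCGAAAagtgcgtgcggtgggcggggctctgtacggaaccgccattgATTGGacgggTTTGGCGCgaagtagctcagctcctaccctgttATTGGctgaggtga
Cdk4 (chr10:127063385-127063534, plus strand): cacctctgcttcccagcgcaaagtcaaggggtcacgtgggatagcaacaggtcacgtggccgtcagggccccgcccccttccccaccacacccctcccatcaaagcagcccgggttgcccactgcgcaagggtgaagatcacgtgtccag

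A CHR stood in the windows of 16 of 18 mitotic members with a window (88.9%), 3 of 11 replication members (27.3%) and 2 of 8 G1 and G1/S members (25.0%), against 30.6% of the 27025 genes of the promoter table. A CHR together with a CCAAT box stood in 83.3% of the mitotic members, 27.3% of the replication members and 12.5% of the G1 and G1/S members, against 12.2% of all genes. The E2F site was found in 6 of 11 replication members (54.5%), 1 of 18 mitotic members and 1 of 8 G1 and G1/S members, against 2.6% of all genes. In *Mcm6*, a pair of E2F matches on opposite strands overlap in 1 run of capitals. The mitotic member with an E2F match is *Cdk1*, which has 2 CHR and 2 CCAAT matches besides. In the stretch of *Cdk4* none of the 3 motifs was found, which says only that these letters are not in this window. A match is a description of the letters and not a measured site.

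*Stk11* itself had 60.9, 85.0 and 81.9 CPM (counts scaled to a library size of 1000000 after TMM normalization) in Stk11-KO libraries, against 69.3, 92.0 and 76.0 CPM in WT libraries. The groups overlap (log2 fold change −0.06 ± 0.26 SE). The counts cover the whole gene and not the floxed part alone, and whether *Stk11* was deleted in these cells was not tested. Libraries held between 22179567 and 55545899 counts. Cell type markers varied widely within both groups. Of 14 listed endothelial markers, 13 had a locus of their own. Their summed level was 1613, 3007 and 350.0 CPM in Stk11-KO libraries, against 1018, 650.2 and 392.7 CPM in WT libraries, and *Cldn5* and *Robo4* were at 0 in at least 1 library. The summed level of 10 pericyte and smooth muscle markers was 1012, 1153 and 4738 CPM in Stk11-KO libraries, against 1014, 462.6 and 9734 CPM in WT libraries. That of the 11 fibroblast markers, of 14 listed, with a locus of their own ranged between 322.1 and 6375 CPM in Stk11-KO libraries and between 1520 and 3411 CPM in WT libraries. *Rgs5* and *Kcnj8* of the first list and *Lum*, *Postn*, *Fap* and *Dpt* of the second were at 0 in at least 1 library. The 16 leukocyte markers summed to at most 40.8 CPM and the 8 erythroid markers to at most 4.56 CPM in any library. Transcripts of 4 Y-linked genes summed to at most 0.28 CPM in Stk11-KO libraries and to at least 22.1 CPM in WT libraries, so genotype and sex cannot be told apart here.

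The comparison between genotypes asks whether the levels of the members differed between libraries labelled Stk11-KO and WT. No member passed an adjusted p under 0.05 (edgeR's quasi-likelihood test, Benjamini-Hochberg over all loci tested), the lowest adjusted p of a member being 0.644, whereas 13 of all tested loci did (0.0747%, with 0.046% higher and 0.0287% lower in Stk11-KO libraries). By DESeq2 and by limma on log2(FPKM + 1) the count of members was likewise 0, against 216 loci (1.28%) and 19 loci (0.109%). At an unadjusted p under 0.05, 2 of 45 members differed, against 7.33% of all loci. They were *Ccne2*, higher in Stk11-KO libraries, and *Ccnd3*, lower. The same 2 were the members whose groups did not overlap (4.44%, against 14.3% of all loci, 7.7% higher and 6.59% lower). Neither share is above that of all loci. The median log2 fold change, Stk11-KO over WT, was 0.13 over the members and 0.02 over all loci, with 27 members above 0 and 18 below. This balance turned with single libraries, to 39 above and 6 below without WT replicate 2 and to 15 above and 30 below without WT replicate 3. Only 3 members had a 95% interval that lay between a log2 fold change of −1 and 1, and the intervals of the others included differences of 2-fold or more. In bulk RNA, fewer dividing cells and less RNA of a gene in each cell cannot be told apart.

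**Figure D1:**
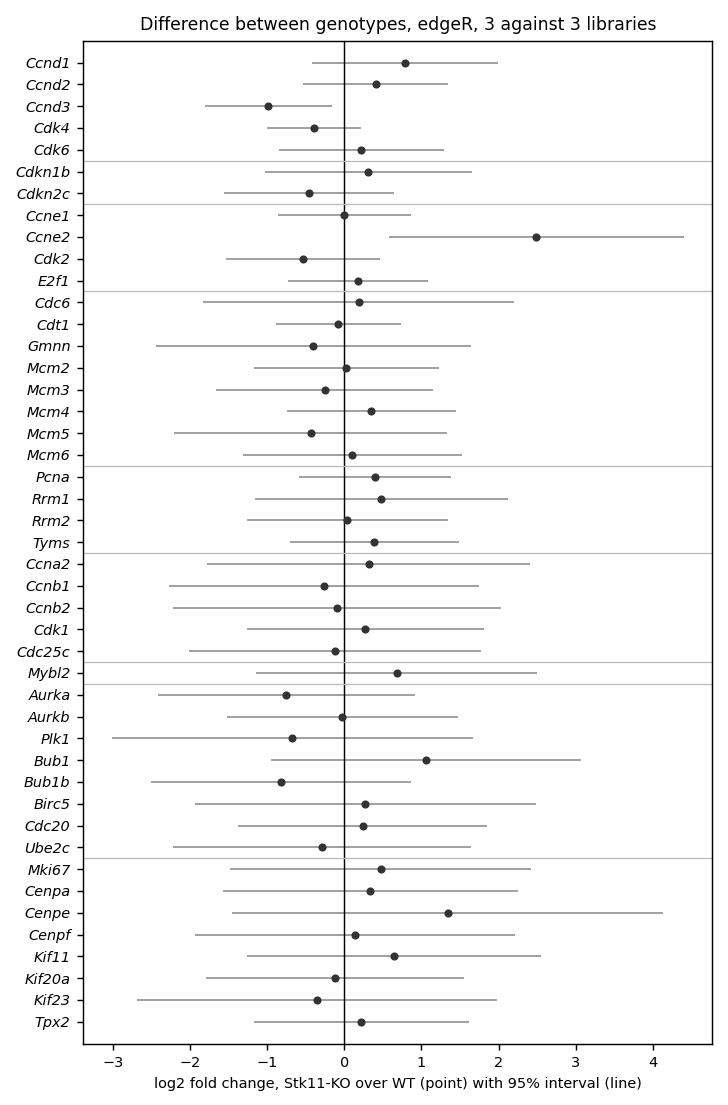
Log2 fold change of each of the 45 members with a locus of its own, Stk11-KO over WT (x axis, point with its 95% interval as a line, edgeR, 3 against 3 libraries), grouped by role with grey lines between groups. The intervals of *Ccne2* and *Ccnd3* leave out 0, those of the other members include it, and the widest belong to mitotic genes.

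The members varied widely between libraries of 1 genotype. Stk11-KO replicate 2 and WT replicate 3 were the lowest 2 of the 6 libraries in 22 of 22 mitotic members, in 10 of 12 replication members and in 1 of 11 G1 and G1/S members. Over all loci tested, these 2 libraries were the lowest 2 in 9.31%. The pair of libraries was picked after its values were seen, so the counts are a description. The counts were the same on the scale of the whole library without TMM and in FPKM (fragments per kilobase, scaled by the authors to library size). In the mitotic members, the lowest of the other 4 libraries exceeded the higher of these 2 by between 1.58-fold (*Cenpe*) and 5.45-fold (*Cenpf*), with a median of 2.67-fold.

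**Figure D2:**
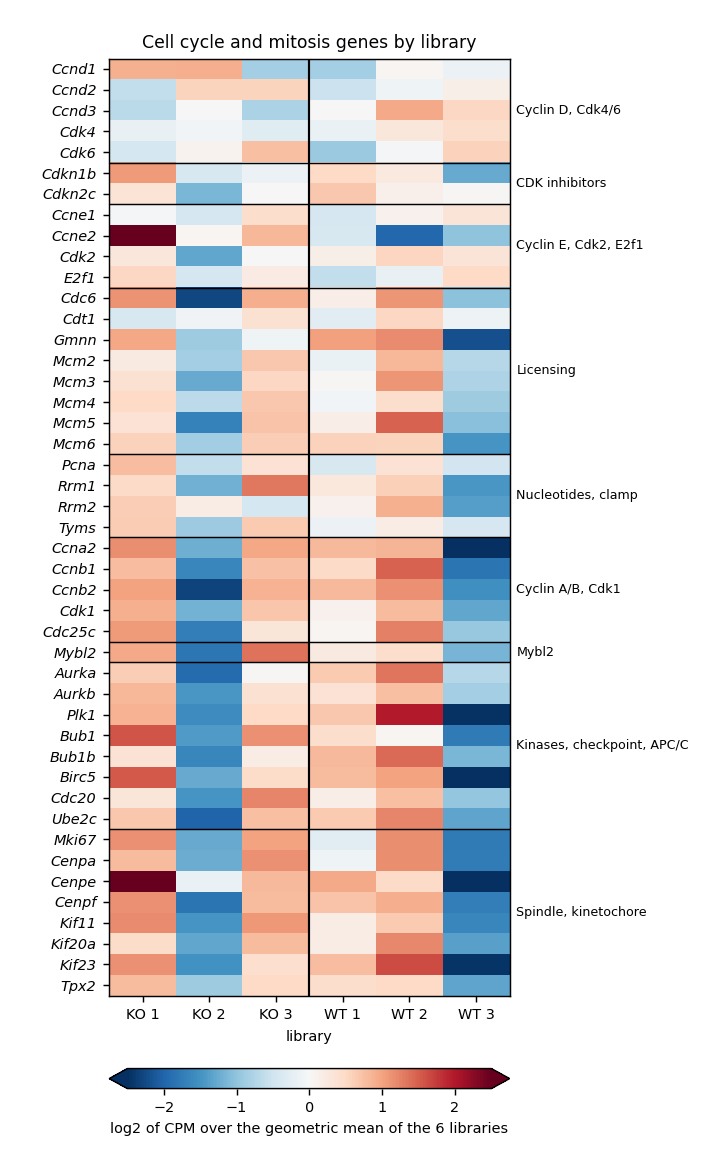
Level of the 45 members (rows, grouped by role) in the 3 Stk11-KO and the 3 WT libraries (columns), as the log2 of the CPM over the geometric mean of the 6 libraries, red above and blue below that mean. The columns of Stk11-KO replicate 2 and WT replicate 3 are blue in every mitotic row, though pale for *Cenpe* in Stk11-KO replicate 2, and in most replication rows, and mixed in the G1 rows at the top.

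The summed level of the 22 mitotic members was 387, 81.4 and 372 CPM in Stk11-KO libraries, against 293, 469 and 83.1 CPM in WT libraries. Each genotype had 2 libraries in a high range and 1 in a low range, and the groups overlap. The 12 replication members summed to 839, 436 and 805 CPM in Stk11-KO libraries, against 625, 1020.3 and 278 CPM in WT libraries, with the same 2 libraries lowest. The D-type cyclins, *Cdk4* and *Cdk6* summed to 5009, 6344 and 3542 CPM in Stk11-KO libraries, against 2448, 3985 and 3945 CPM in WT libraries. Here Stk11-KO replicate 2, the library with the lowest mitotic sum, was the highest, and *Ccnd1* alone had 3887 CPM in it. WT replicate 3, the lowest library in 13 of the 22 mitotic members, was not set apart here. The ratio of the mitotic to the replication sum was 0.46, 0.19 and 0.46 in Stk11-KO libraries, against 0.47, 0.46 and 0.30 in WT libraries, so that the mitotic sum was lower relative to the replication sum in the same 2 libraries.

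Some sums of cell type markers also differed between these libraries. The summed level of 8 mesothelial and epithelial markers was 514, 137 and 965 CPM in Stk11-KO libraries, against 689, 1946 and 121 CPM in WT libraries, lowest in the same 2 libraries and highest in WT replicate 2, as the mitotic sum was. Of the single markers of that list, only *Msln* and *Upk3b* had the same 2 libraries lowest. *Msln* had 434, 56.5 and 279 CPM in Stk11-KO libraries, against 570, 1646 and 104 CPM in WT libraries. *Upk1b* had 18.5, 55.9 and 430 CPM in Stk11-KO libraries, against 13.6, 77.1 and 3.90 CPM in WT libraries. *Upk3b*, *Krt8* and *Epcam* of that list were at 0 in at least 1 library. Outside that list, *Dcn*, *Fbln1*, *Notch3* and *Csf1r* were among the markers with the same 2 libraries lowest, though most markers were not. Stk11-KO replicate 2 had the highest endothelial sum and WT replicate 3 the highest pericyte and smooth muscle sum. Most endothelial markers were highest in Stk11-KO replicate 2, but *Flt1*, *Emcn*, *Esam* and *Vwf* were not. *Vwf* had 3.80 CPM there, against 36.4 CPM in WT replicate 1. The pericyte and smooth muscle sum of WT replicate 3 (9734 CPM) was largely *Acta2* (6757 CPM). *Rgs5*, *Notch3* and *Kcnj8* of that list were not highest in WT replicate 3. Stk11-KO replicate 2 held 37114459 counts and WT replicate 3 held 52795240. The smallest library, WT replicate 1, was in the high range of mitotic sums. The part of library size or of other cell types in the mitotic sums was not tested.

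**Figure D3:**
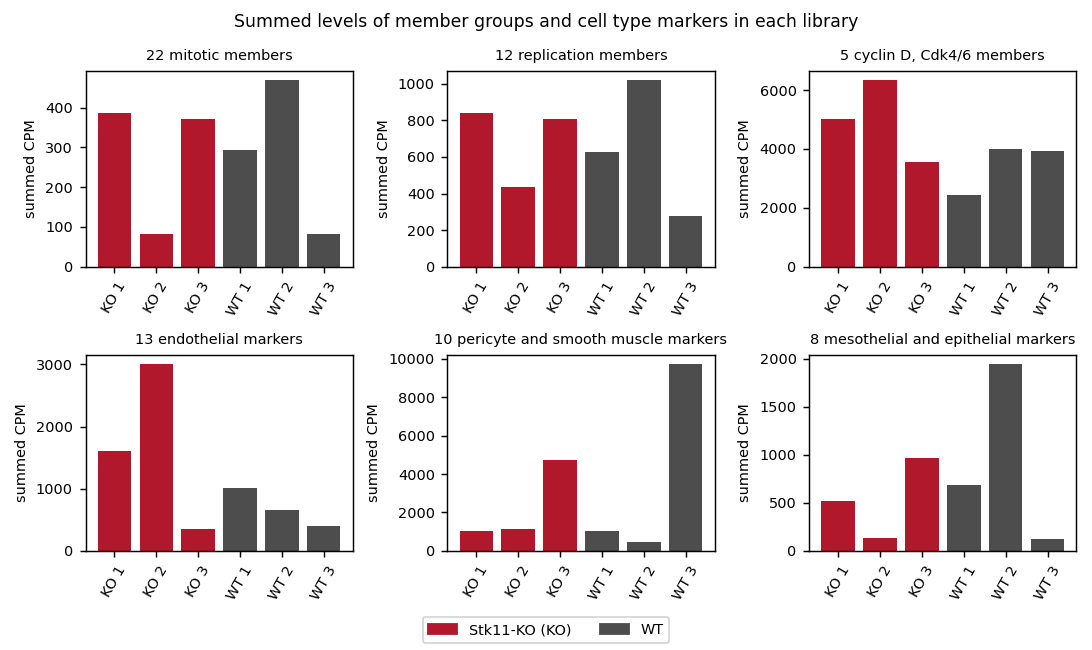
Summed CPM in each library (y axes, from 0) of 3 groups of members (top row) and of 3 lists of cell type markers (bottom row), with Stk11-KO libraries in red and WT libraries in grey. The mitotic sums of Stk11-KO replicate 2 (81.4 CPM) and WT replicate 3 (83.1 CPM) lie under those of the other 4 libraries (293 to 469 CPM), and the mesothelial and epithelial sums are lowest in the same 2 libraries, though single markers of that list differ.

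Among the D-type cyclins and their kinases, which start the passage through G1, *Ccnd1* (cyclin D1, chr7:144929931-144939925 on GRCm38) was the most abundant member per length, with mean FPKM of 501 in Stk11-KO libraries and 218 in WT libraries. FPKM carries no TMM factor, so these means are not on the scale of the CPM. *Ccnd1* had 3809.6, 3887 and 1139.7 CPM in Stk11-KO libraries, against 1143, 2128 and 1852 CPM in WT libraries. Stk11-KO replicates 1 and 2 were above every WT library and Stk11-KO replicate 3 was below them all. The log2 fold change was 0.79 ± 0.52 (SE), with an adjusted p of 0.757 by edgeR. It was 1.17 without Stk11-KO replicate 3, its lowest library, with an unadjusted p of 0.0176 and an adjusted p of 0.400 by edgeR. With any other single library left out it lay between 0.54 and 0.98, with an unadjusted p of 0.161 or more by edgeR. *Ccnd2* (cyclin D2), the second by FPKM, ranged between 909 and 2073 CPM in Stk11-KO libraries and between 967 and 1549 CPM in WT libraries. Its locus overlaps *Fgf23*, *Tigar* and further genes, and that of *Ccnd1* overlaps *LTO1*. Not every overlap of a member locus is named below, such as those of *Cdk2* with *Pmel* and *Ube2c* with *Tnnc2*.

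*Ccnd3* (cyclin D3, chr17:47505051-47599689) had 97.5, 155 and 90.2 CPM in Stk11-KO libraries, against 156, 300.0 and 222 CPM in WT libraries. The groups do not overlap, although Stk11-KO replicate 2 (155 CPM) and WT replicate 1 (156 CPM) almost meet. The log2 fold change was −0.98 ± 0.35 (SE), with an unadjusted p of 0.0252 and an adjusted p of 0.662 by edgeR. The unadjusted p was 0.081 without Stk11-KO replicate 1, 0.075 without Stk11-KO replicate 3 and 0.1001 without WT replicate 2, and 0.106 by limma on log2(FPKM + 1). In FPKM, which carries no TMM factor, the groups overlapped, with a mean of 11.4 in Stk11-KO libraries and 17.6 in WT libraries. The share of *Ccnd3* in the summed FPKM of the 3 D-type cyclins was 1.36% to 2.41% in Stk11-KO libraries and 4.82% to 6.11% in WT libraries, without overlap, whereas that of *Ccnd1* was 50.1% to 87.7% in Stk11-KO libraries and 65.6% to 71.3% in WT libraries. The *Ccnd3* share depends on *Ccnd1* and *Ccnd2* as well and was not tested, so it is no separate measure of the *Ccnd3* difference. The *Ccnd3* locus overlaps *Bysl*, whose log2 fold change was −0.54, and the sources used here do not state whether reads were counted by strand.

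*Cdk4*, a kinase partner of the D-type cyclins, was the steadiest member, with 135 to 158 CPM in Stk11-KO libraries and 148 to 225 CPM in WT libraries (log2 fold change −0.39 ± 0.26 SE). Its locus overlaps *Tspan31*. *Cdk6*, the other partner, ranged between 48.1 and 109.7 CPM in Stk11-KO libraries and between 34.6 and 97.6 CPM in WT libraries.

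The CDK inhibitors among the members oppose these kinases. *Cdkn1b* (p27, which binds cyclin E and cyclin D complexes) had 26.1, 9.52 and 11.4 CPM in Stk11-KO libraries, against 17.9, 14.9 and 5.23 CPM in WT libraries. Stk11-KO replicate 2 and WT replicate 3 were again lowest, the only G1 or G1/S member in which they were. *Cdkn2c* (p18, an inhibitor of Cdk4 and Cdk6) had 7.97, 2.85 and 6.25 CPM in Stk11-KO libraries, against 10.1, 6.89 and 6.45 CPM in WT libraries.

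In the G1/S group, *Ccne2* (cyclin E2, a partner of Cdk2, chr4:11191351-11204779) had 7.41, 1.36 and 2.32 CPM in Stk11-KO libraries, against 0.995, 0.336 and 0.650 CPM in WT libraries. The groups do not overlap, and Stk11-KO replicate 1 stands well above the other libraries. The log2 fold change was 2.49 ± 0.82 (SE), with an unadjusted p of 0.0175 and an adjusted p of 0.644 by edgeR. Without Stk11-KO replicate 1 it was 1.49, with an unadjusted p of 0.105, and without WT replicate 2 it was 2.18, with an unadjusted p of 0.0547. The locus overlaps *Ints8*, which was more abundant at 17.4 to 28.004 CPM in Stk11-KO libraries and 16.1 to 23.1 CPM in WT libraries. *Ccne1* (cyclin E1) averaged 11.4 ± 3.36 CPM in Stk11-KO libraries and 11.4 ± 2.87 CPM in WT libraries (SD, n = 3 each), with a 95% interval of its log2 fold change of −0.86 to 0.86. The ratio of *Ccne1* to *Ccne2* in FPKM was 1.93 to 8.53 in Stk11-KO libraries and 11.0 to 47.1 in WT libraries. This ratio includes *Ccne2* and is no separate measure of its difference.

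*E2f1*, the factor released by the pocket proteins, had 41.9, 21.97 and 34.1 CPM in Stk11-KO libraries, against 19.2, 26.0 and 41.3 CPM in WT libraries. The groups overlap, and unlike the mitotic genes it was highest among WT libraries in WT replicate 3. *Cdk2*, the kinase of the cyclin E complexes, had 25.0, 8.32 and 20.6 CPM in Stk11-KO libraries, against 22.7, 29.6 and 25.7 CPM in WT libraries, with Stk11-KO replicate 2 alone set low.

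**Figure D4:**
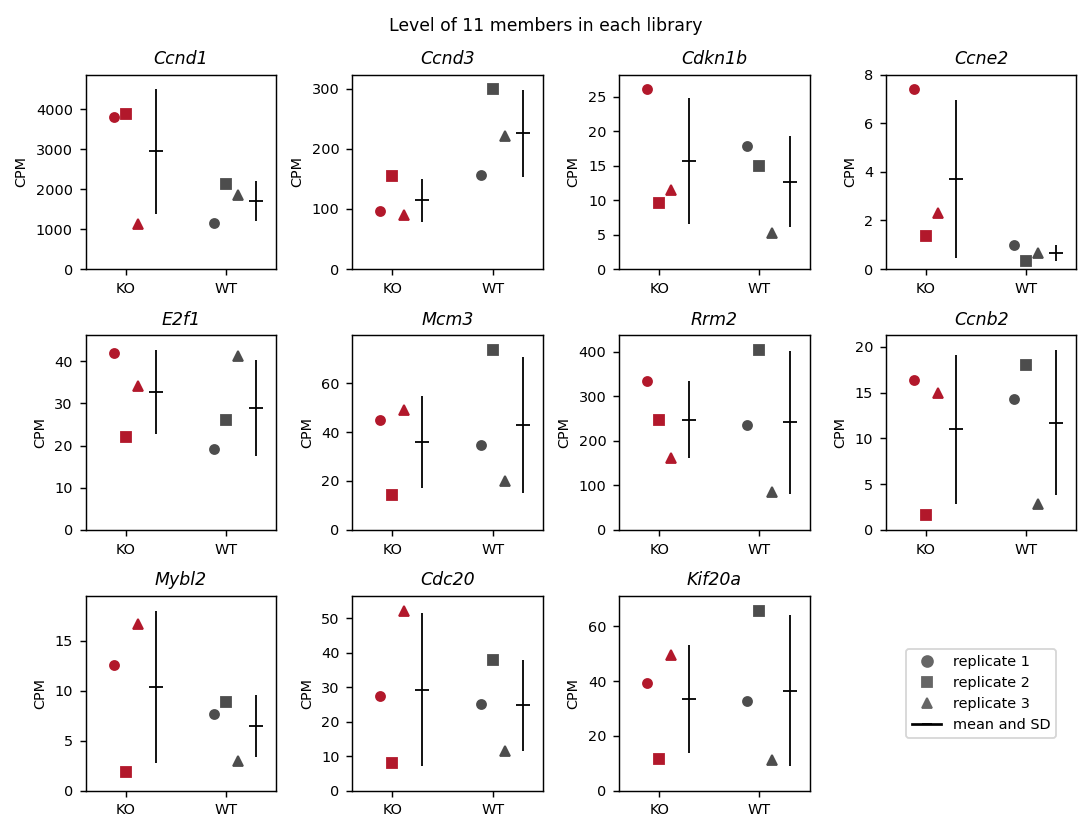
CPM of 11 members in each library (symbols by replicate), Stk11-KO in red on the left and WT in grey on the right of each panel, with the mean and SD of 3 libraries as a black bar. *Ccne2* and *Ccnd3* have groups that do not overlap, and in *Mcm3*, *Ccnb2*, *Mybl2*, *Cdc20* and *Kif20a* the square of Stk11-KO and the triangle of WT lie at the bottom.

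Replication licensing loads the Mcm2 to Mcm7 helicase at origins, with Cdc6 and Cdt1 as loaders and geminin (*Gmnn*) as the inhibitor of Cdt1. *Mcm3*, the licensing member with the highest FPKM, had 44.7, 14.2 and 48.8 CPM in Stk11-KO libraries, against 34.9, 73.6 and 20.1 CPM in WT libraries (log2 fold change −0.25 ± 0.60 SE). The same order, with Stk11-KO replicate 2 and WT replicate 3 lowest, held in *Mcm2*, *Mcm4*, *Mcm5* and *Mcm6*. *Mcm5* spread most of these, between 10.4 and 55.3 CPM in Stk11-KO libraries and between 16.4 and 93.3 CPM in WT libraries. *Cdc6* had 11.6, 1.10 and 9.96 CPM in Stk11-KO libraries, against 5.92, 11.4 and 2.60 CPM in WT libraries, and *Gmnn* had 5.35, 1.49 and 2.56 CPM in Stk11-KO libraries, against 5.61, 6.25 and 0.598 CPM in WT libraries. *Cdt1* departed from them, with 15.2, 18.8 and 25.9 CPM in Stk11-KO libraries, against 16.5, 28.6 and 18.2 CPM in WT libraries. Its locus is overlapped by one that carries the names of *Usp10* and *Galnt2*.

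Of the genes of nucleotide supply, *Rrm2*, the small subunit of ribonucleotide reductase, had 335, 247 and 161 CPM in Stk11-KO libraries, against 236, 404 and 83.9 CPM in WT libraries. It was the replication member besides *Cdt1* in which Stk11-KO replicate 2 was not low. *Rrm1*, the large subunit, had 139, 43.3 and 247 CPM in Stk11-KO libraries, against 120.4, 151 and 36.2 CPM in WT libraries, so the ratio of *Rrm2* to *Rrm1* in FPKM ran between 2.59 and 22.7 in Stk11-KO libraries and between 7.80 and 10.6 in WT libraries. *Tyms* (thymidylate synthase) and *Pcna* (the sliding clamp of the replication polymerases) had the 2 libraries lowest. *Pcna* ranged between 31.1 and 81.3 CPM in Stk11-KO libraries and between 34.3 and 61.4 CPM in WT libraries, and *Tyms* between 5.47 and 16.1 CPM in Stk11-KO libraries and between 7.68 and 11.7 CPM in WT libraries.

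Of the mitotic cyclins, *Ccnb2* (cyclin B2, chromosome 9) had 16.4, 1.64 and 14.9 CPM in Stk11-KO libraries, against 14.3, 18.1 and 2.81 CPM in WT libraries. The high libraries of both genotypes lay between 14.3 and 18.1 CPM, and the groups overlap (log2 fold change −0.09 ± 0.91 SE). *Ccna2* (cyclin A2, which acts in S phase and G2) ranged between 5.36 and 28.1 CPM in Stk11-KO libraries and between 2.08 and 22.5 CPM in WT libraries, and its locus overlaps *Exosc9*. *Ccnb1* (cyclin B1) ranged between 5.13 and 27.3 CPM in Stk11-KO libraries and between 4.45 and 43.9 CPM in WT libraries. *Cdk1*, the kinase they activate and the gene whose promoter stretch holds 2 CHR matches, had 38.6, 9.24 and 33.7 CPM in Stk11-KO libraries, against 22.6, 36.3 and 8.51 CPM in WT libraries. *Cdc25c*, the phosphatase that activates Cdk1, stayed at or under 8.16 CPM in all libraries.

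*Mybl2* (B-Myb, which with MuvB proteins activates mitotic genes) had 12.6, 1.87 and 16.7 CPM in Stk11-KO libraries, against 7.68, 8.83 and 2.94 CPM in WT libraries. The high Stk11-KO libraries were above the high WT libraries, and the log2 fold change was 0.68 ± 0.78 (SE), with an adjusted p of 0.872 by edgeR. No CHR was found in its window.

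Among mitotic kinases, checkpoint proteins and the anaphase-promoting complex (APC/C), *Cdc20*, the activator of the APC/C, had 27.5, 8.01 and 52.2 CPM in Stk11-KO libraries, against 25.0, 37.8 and 11.4 CPM in WT libraries. It had the highest FPKM of the mitotic members, with means of 11.9 in Stk11-KO libraries and 9.04 in WT libraries, and its locus overlaps *Elovl1*. *Ube2c*, the ubiquitin-conjugating enzyme of the APC/C, had 11.2, 1.75 and 11.9 CPM in Stk11-KO libraries, against 11.0, 16.4 and 2.81 CPM in WT libraries. *Plk1*, a kinase of mitotic entry, ranged between 3.39 and 18.4 CPM in Stk11-KO libraries and between 1.82 and 39.6 CPM in WT libraries. *Aurka* (a spindle pole kinase), *Aurkb* and *Birc5* (kinase and survivin subunit of the chromosomal passenger complex), and *Bub1* and *Bub1b* (spindle checkpoint kinases) had log2 fold changes between −0.82 (*Bub1b*) and 1.06 (*Bub1*), with adjusted p-values of 0.809 or more by edgeR.

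Of the spindle, kinetochore and chromosome genes, *Kif20a*, a kinesin of cytokinesis, had 39.5, 11.6 and 49.5 CPM in Stk11-KO libraries, against 32.6, 65.7 and 11.2 CPM in WT libraries, and its locus overlaps *Cdc23*. *Mki67*, the gene of the Ki-67 antigen used to stain dividing cells, had 18.9, 3.59 and 17.2 CPM in Stk11-KO libraries, against 7.01, 19.1 and 2.52 CPM in WT libraries. In both, the same 2 libraries were lowest and the genotypes overlapped. *Cenpe*, a kinetochore motor, had the widest range of all members, at 7.38, 1.13 and 2.24 CPM in Stk11-KO libraries, against 2.44, 1.78 and 0.052 CPM in WT libraries. The lowest of these is under the 0.0781 CPM that 3 counts give in that library. *Cenpa* (the centromeric histone H3), *Cenpf* (a kinetochore protein), *Kif11* (the motor that separates spindle poles), *Kif23* (a central spindle kinesin) and *Tpx2* (a spindle assembly factor) had log2 fold changes between −0.35 (*Kif23*) and 0.65 (*Kif11*). *Cenpf* had the lowest FPKM of the 45 members.

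The 3 members in joined loci followed the mitotic and replication order, in values that include their neighbours. The locus of *Top2a* (topoisomerase II alpha, which untangles chromosomes) joined with *Gm23451* had 56.3, 6.70 and 39.0 CPM in Stk11-KO libraries, against 25.7, 32.7 and 6.92 CPM in WT libraries. The locus of *Mcm7* joined with 3 microRNA genes of its introns had 62.3, 21.2 and 82.3 CPM in Stk11-KO libraries, against 50.7, 83.4 and 14.6 CPM in WT libraries. The locus of *Foxm1* (a forkhead activator of mitotic genes) joined with *Tex52*, *Gm44596* and *Nrip2* had 26.3, 6.62 and 16.5 CPM in Stk11-KO libraries, against 28.3, 15.5 and 4.87 CPM in WT libraries.

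Other genes of the cycle, from 4 lists of 138 genes of which 130 were tested, showed the split by library to unequal extents. Stk11-KO replicate 2 and WT replicate 3 were the lowest 2 libraries in 44 of 57 spindle, kinetochore, condensin and cytokinesis genes, in 19 of 37 replication genes, in 7 of 15 cyclin, phosphatase and checkpoint kinase genes and in 2 of 21 CDK inhibitors, pocket proteins and E2Fs (9.52%), against 9.31% of all loci. Between genotypes, 0 of the 130 passed an adjusted p under 0.05 by edgeR, while at an unadjusted p under 0.05 it called 3 higher and 0 lower, against 4.36% of all loci higher and 2.97% lower. The first of the 3 was *E2f8*, an E2F repressor, with 7.71, 16.3 and 11.6 CPM in Stk11-KO libraries, against 3.16, 7.02 and 2.498 CPM in WT libraries. The groups do not overlap (log2 fold change 1.49 ± 0.52 SE, adjusted p = 0.662 by edgeR), and Stk11-KO replicate 2, 1 of the 2 libraries lowest in the mitotic members, was highest here. *Orc4*, a subunit of the origin recognition complex, had 23.8, 8.57 and 5.24 CPM in Stk11-KO libraries, against 4.57, 3.12 and 3.77 CPM in WT libraries (log2 fold change 1.71 ± 0.60 SE, adjusted p = 0.662 by edgeR). *Tfdp2*, a dimer partner of E2F factors, had 38.9, 6.80 and 63.2 CPM in Stk11-KO libraries, against 11.0, 8.80 and 14.5 CPM in WT libraries, with Stk11-KO replicate 2 below every WT library.

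Of the other genes named from these lists, none passed even the unadjusted threshold. The log2 fold changes were 1.16 for *Rbl1* and 0.71 for *Rb1* (pocket proteins), 0.57 for *Wee1* (the kinase that restrains Cdk1) and −1.13 for *Cdc25b* (a phosphatase that activates it). They were 1.51 for *Pola1* (a subunit of DNA polymerase alpha), 1.13 for *Mad2l1* (a spindle checkpoint protein) and 2.09 for *Sgo2a* (a protector of centromere cohesion).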

How the data were processed

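Total RNA of 3 Stk11-KO and 3 WT EC libraries was sequenced. The methods name HISAT2 on GRCm38 and StringTie, whereas mm9, BWA, TopHat and Cufflinks stand in the submitters' processing notes, and versions are not given in the sources used here. All 48 member loci overlap the gene of that symbol in GENCODE M21 (GRCm38), 42 with the same start and end. The authors deposited whole-number counts for each locus and library, not scaled to library size. For FPKM, the authors divided by transcript length and library depth before deposit, and these values served mainly to compare levels between genes and for limma. They carry no TMM factor, so FPKM of the genotypes are not on the CPM scale. Structural RNAs, such as ribosomal and small nuclear RNAs, held 6.38%, 7.42% and 21.5% of the counts of Ensembl loci in Stk11-KO libraries. In WT libraries they held 15.3%, 26.4% and 24.2%.

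Loci were the 53530 of 91725 with an Ensembl transcript. Between 0.359% and 0.887% of a library's counts fell in loci with no gene name, which entered neither the library sizes nor the test. Named loci without an Ensembl transcript were left out likewise. They held 4.80%, 8.23% and 8.43% of the counts in Stk11-KO libraries, against 6.12%, 13.2% and 13.4% in WT libraries. From the counts, edgeR 4.0.16 (R 4.3.3; TMM, default filter on low counts, quasi-likelihood test on genotype) gave log2 fold changes and Benjamini-Hochberg adjusted p-values over 17396 loci, at a threshold of 0.05. The steps were tested on simulated data. No 2 libraries of a group matched to within counting error (chi-square over its degrees of freedom was 184 or more), so none was treated as a copy of another. This check cannot show whether they came from separate mice. Alternatives used limma 3.58.1 and DESeq2 1.42.0. Figures were drawn with matplotlib 3.10.9.

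Members and lists were chosen with earlier results of these data known. Every member was named. Values in each library were given for members at an unadjusted p under 0.05, those without overlap and the one with the highest FPKM of each role, and further members were given so after their values were seen. Outside the members, genes at an unadjusted p under 0.05 and up to 2 more per list were named. One gene that this rule names is not reported here.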

Additional observations from a re-analysis of the deposited data

How the results depend on the processing

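Over 17 alternatives, 0 members passed an adjusted p under 0.05, and the lowest adjusted p of a member was 0.145 (*Ccne2*, DESeq2). Members at an unadjusted p under 0.05, 2 as reported, were 1 with a mean FPKM of at least 1 (where *Ccne2* was not tested), 0 by limma on log2(FPKM + 1), 1 by limma on log2(FPKM + 0.1), and 0 to 2 with single libraries left out, 0 without Stk11-KO replicate 1 and without WT replicate 2. The 2 without Stk11-KO replicate 3, and without replicate 3 of both groups, were *Ccne2* and *Ccnd1*, with *Ccnd3* no longer among them. Without Stk11-KO replicate 2 and WT replicate 3 together, left out after their values were seen, the count was 2 and the median log2 fold change of the members 0.19. The sign of 32 of 45 members changed in at least 1 alternative, and 13 kept theirs. Members above and below 0 were 17 and 28 without Stk11-KO replicate 1, 36 and 9 without Stk11-KO replicate 2, 18 and 27 without Stk11-KO replicate 3, 10 and 35 without replicate 3 of both groups, and 37 and 8 by limma on log2(FPKM + 0.1). The median of the members ran between −0.20 and 0.54 with 1 library left out and was −0.45 without replicate 3 of both groups. Limma on log2(FPKM + 0.1) moved the median of all loci to 0.29.

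The main test did not treat same-numbered libraries as pairs. The deviations of same-numbered libraries correlated at 0.23, −0.19 and 0.05 over loci, and those of differently numbered libraries between −0.32 and 0.25. With 3 libraries in each group, these values cannot show whether the libraries were paired. With the replicate block, 2 members were at an unadjusted p under 0.05 and 0 at an adjusted one, and *Kif20a* turned to 0.035. By limma, log2 fold changes turned positive for *Mcm3* (0.033 with 1 added and 0.046 with 0.1 added), *Ccnb2* (0.021 and 0.0075) and *Kif20a* (0.18 and 0.25). With 1 or 2 libraries left out, values ran between −0.27 and 0.65 for *Cdkn1b*, −0.037 and 0.75 for *E2f1*, −0.37 and 0.64 for *Rrm2*, −0.88 and 0.39 for *Mcm3*, −0.84 and 0.42 for *Ccnb2*, −0.94 and 0.62 for *Kif20a*, −0.19 and 1.18 for *Mybl2*, and −0.82 and 0.70 for *Cdc20*. Among these, they were −0.14 for *Rrm2*, −0.19 for *Mybl2* and −0.82 for *Cdc20* without replicate 3 of both groups, and without Stk11-KO replicate 2 and WT replicate 3, −0.36 for *Rrm2*. The cause of these changes was not tested. The common coefficient of variation between libraries was 0.628, which limits what 3 against 3 libraries can show.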

Other observations

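Of 29 assembled loci that carry a member's symbol but no Ensembl transcript, 25 held under 100 counts in total. In 1 of the 29 the groups did not overlap, against 14.3% of all loci tested, and it was singled out for this after its values were seen. This *Rrm1*-named locus lies at chr7:102470240-102474125 (GRCm38), 469 bases past the end of the *Rrm1* locus. It had 10.01, 1.90 and 18.3 CPM in Stk11-KO libraries, against 1.45, 1.48 and 0.234 CPM in WT libraries. As a share of the counts of *Rrm1* itself, it held 7.18%, 4.39% and 7.39% in Stk11-KO libraries, against 1.201%, 0.977% and 0.647% in WT libraries. The log2 fold change was 3.29 ± 0.97 (SE), with an unadjusted p of 0.00919 and an adjusted p of 0.579 by edgeR over all loci with a gene name. The difference did not pass the correction.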
